A study of Mus musculus with 32 samples.

Results

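Between 14 and 21 d after transection of the sciatic nerve, the RNA of the gastrocnemius (GAS) muscle, the large muscle of the calf, was compared across 8 of the 32 samples of the series. These are the 4 samples labelled Day21 (D21a to D21d) and the 4 labelled Day14 (D14a to D14d), and the 18469 of 33397 genes that reached an FPKM of 0.1 in at least 4 of them. FPKM gives the sequenced fragments of a gene relative to the length of its exons and to all fragments of the sample. The rule that set these members uses the time labels and the level of each gene.

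Both groups held GAS muscle of C57BL/6 mice with a cut nerve, so that denervation is shared and the time after it is what the labels set apart. In the study's methods the animals are male C57BL/6J mice aged 6 to 8 weeks from which a small piece of the left sciatic nerve was removed. The 4 samples of day 0 serve only as a background level. They are labelled with the same surgery, while the methods describe sham mice. Nothing in the labels ties a column to 1 animal. The paper states that each of its RNA analyses had 4 or more biologically independent samples. Without a tie to animals, p-values measure only the spread between these samples. The labelled tissue held up against its markers: the summed FPKM of 10 myofibre genes was 28968 to 30027 at 14 d and 29965 to 32606 at 21 d. The extraction protocol in the labels names retinas, but 10 retina markers summed to only 0.792 to 1.203 FPKM and 0.867 to 1.54 FPKM, and Nrl among them was at 0 in all 8 samples.

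A muscle that loses its nerve stops contracting and shrinks. Its fibres break down contractile protein through ubiquitin ligases such as MuRF1 (encoded by Trim63), which tag proteins for the proteasome, and these ligases are under the control of FoxO transcription factors that insulin signalling through Akt holds back. Denervated fibres also re-express embryonic and junctional genes, and change their myosin isoforms and their capacity to make ATP from glucose and in mitochondria.

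The 8 samples held 16055083 to 17561584 fragments each, as recovered from the FPKM values. Pearson's r across genes ran from 0.9866 to 0.9928 between samples of a group. Each such pair differed by more than sampling noise (chi-square per degree of freedom 3.81 to 18.9), so none looked like a repeated library. Genes of the mitochondrial genome took 9.27%, 7.34%, 7.27% and 7.48% of the fragments in D14a to D14d. In D21a to D21d they took 11.98%, 10.5%, 10.3% and 10.2%. The groups did not overlap (means 7.84% ± 0.958 and 10.8% ± 0.822, SD, n = 4 each). A two-sided exact permutation test gave p = 0.0286, and no smaller p can be had from groups of 4. The share at day 0 was 14.5% to 18.2%. Because FPKM divides by the total, a larger share for these genes lowers the values of the others.

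Log2(FPKM + 1) was fitted with limma across all 18469 genes, and a gene was called at a Benjamini-Hochberg adjusted p under 0.05. Between 14 and 21 d 461 genes (2.50%) were called, of which 98 (0.531%) were higher and 363 (1.97%) were lower. A change of at least 1.5-fold besides was seen in 108 of them (0.585%), 29 higher and 79 lower. The groups did not overlap in 459 of the 461 genes. Over all tested genes, every day 21 sample lay above every day 14 sample in 468 (2.53%) and below in 1855 (10%). In whole muscle, fewer cells of a type and less RNA per cell cannot be told apart. The median difference of all tested genes was -0.05 on the log2 scale.

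How many of the calls were higher depended on the scaling. Median-ratio scaling called 195 genes higher and 181 lower (51.9% higher, against 21.3% as deposited), quantile normalization 177 and 173 (50.6%), a total without mitochondrial genes 140 and 231 (37.7%), and TPM 105 and 1196 (8.07%). None of the 461 genes changed sign under any of these. The count was 223, 159, 335, 160, 157, 239 and 135 when D14b, D14c, D14d, D21a, D21b, D21c and D21d were left out in turn, and 616 without D14a. Of the 461 genes, 105 (25 higher and 80 lower) stayed called in all 8 such fits and under all 4 scalings. The counts of list members given below stand against the shares of all genes called, 0.531% higher and 1.97% lower. Lost calls given below refer to fits without 1 sample and to the other scalings, unless another setting is named. The same criterion called 158 genes (0.852%) from 7 to 14 d and 45 (0.244%) from 21 to 28 d. These steps share samples with this one, and the difference between the counts was not tested.

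**Figure D1:**
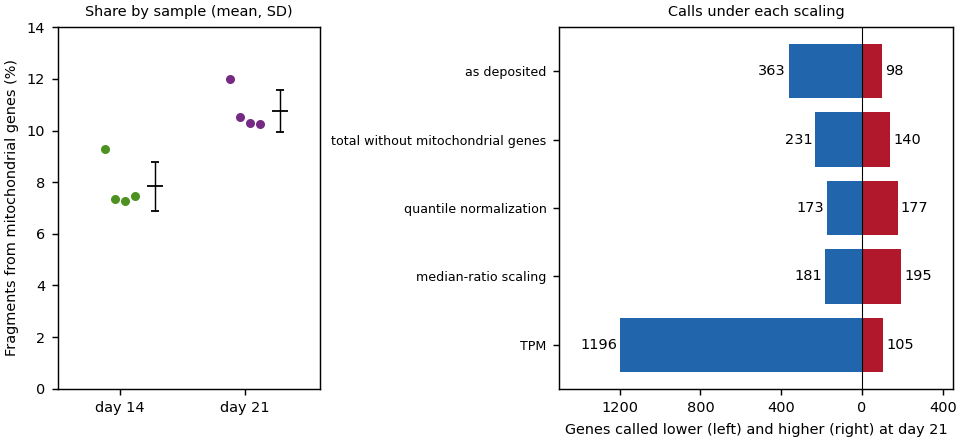
Left, the percentage of fragments from mitochondrial genes in each sample (points) with the mean and SD (tick and whiskers, n = 4); the day 14 samples lie between 7.27% and 9.27% and the day 21 samples between 10.2% and 11.98%. Right, the number of genes called lower (blue, left of 0) and higher (red, right of 0) at day 21 for the values as deposited and under 4 other scalings; the higher genes number 98 as deposited and 195 after median-ratio scaling.

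**Figure D2:**
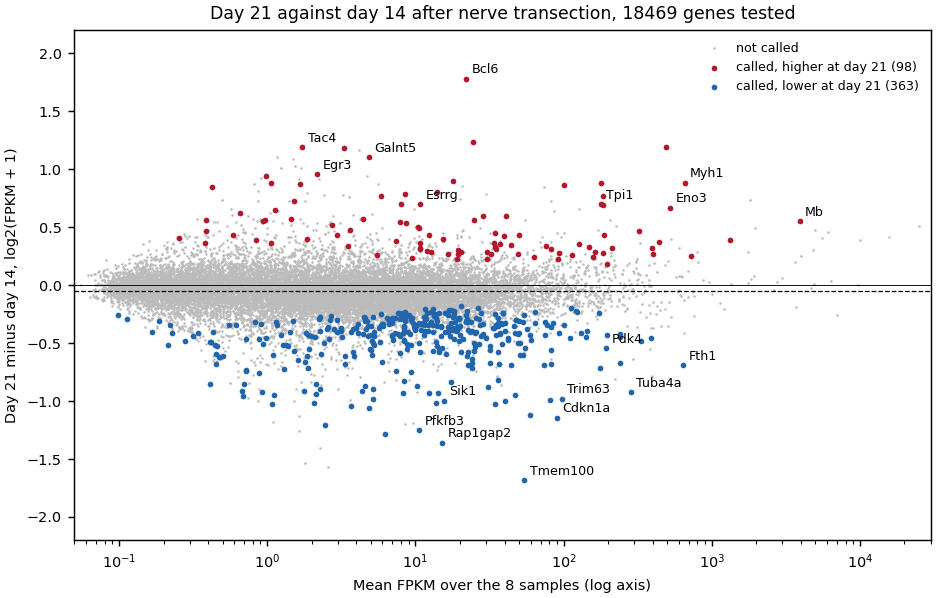
Difference between day 21 and day 14 in log2(FPKM + 1), plotted against the mean FPKM over the 8 samples on a log axis, with 1 point per gene for 18469 genes. Red and blue points are the 98 genes called higher and the 363 called lower, grey points were not called, and the dashed line is the median of all genes at -0.05; Bcl6 lies highest and Tmem100 lowest among the called genes.

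The called gene with the largest rise in log2(FPKM + 1) was Bcl6 (ENSMUSG00000022508; chromosome 16, 23965052 to 23988852, GRCm38), which encodes a transcriptional repressor. Its FPKM was 11.5, 9.205, 8.897 and 7.97 in D14a to D14d and 30.8, 33.4, 37.2 and 36.7 in D21a to D21d, against 11.5 ± 1.75 (SD, n = 4) at day 0. The lowest sample of 21 d stood well above the highest of 14 d, while the samples of 14 d lay about where the day 0 samples did (log2 difference 1.78, standard error 0.102, limma adjusted p = 0.000443). Galnt5, an enzyme that starts mucin-type O-glycosylation, read 3.203, 2.63, 2.71 and 2.41 at 14 d and 7.03, 6.196, 7.32 and 7.55 at 21 d (log2 difference 1.102, standard error 0.08, limma adjusted p = 0.00143). Egr3, a zinc-finger transcription factor of the immediate-early class that muscle spindles need, read 1.33, 1.63, 0.853 and 0.902 at 14 d and 3.32, 3.42, 3.002 and 2.997 at 21 d (log2 difference 0.96, standard error 0.12, limma adjusted p = 0.005804). Neither gene overlapped between the groups, and both were below 1 FPKM at day 0 (at most 0.325 and 0.586).

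Tac4, a tachykinin precursor, and Fgf21, a hormone released by stressed muscle and liver, rose from low levels. Tac4 read 0.273 to 1.03 at 14 d and 2.07 to 3.06 at 21 d (log2 difference 1.19, standard error 0.15, limma adjusted p = 0.00665), and Fgf21 0.242 to 0.679 at 14 d and 1.196 to 2.395 at 21 d (log2 difference 0.88, standard error 0.15, limma adjusted p = 0.0205). At these levels a pseudocount of 1 understates the change, and the ratio of mean FPKM was 4.16 for Tac4 and 3.75 for Fgf21, against 3.68 for Bcl6. Fgf21 lost its call without D14b, D21a or D21d (highest adjusted p = 0.0606). Of the 12 higher genes with the largest differences, 6 carry the names of predicted genes. Of these Gm10925, Gm28437 and Gm13340 are nuclear pseudogenes whose transcripts match mt-Atp6 and mt-Co3 without a difference and mt-Co1 at 97.6% identity, so their fragments may be those of the mitochondrial genes. The others are Gm26917 (1.24), Gm32914 (0.87) and the small nucleolar RNA Gm26109 (1.18), which rests on 1 to 3 fragments at 14 d and 5 to 7 at 21 d. Calls were lost for Gm26109 without D21d, for Gm10925 without D21a, for Gm28437 without D21a, D21b or D21d and for Gm13340 without D14b, D21a, D21b or D21d (at most 0.0502, 0.0526, 0.0578 and 0.0669).

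**Figure D3:**
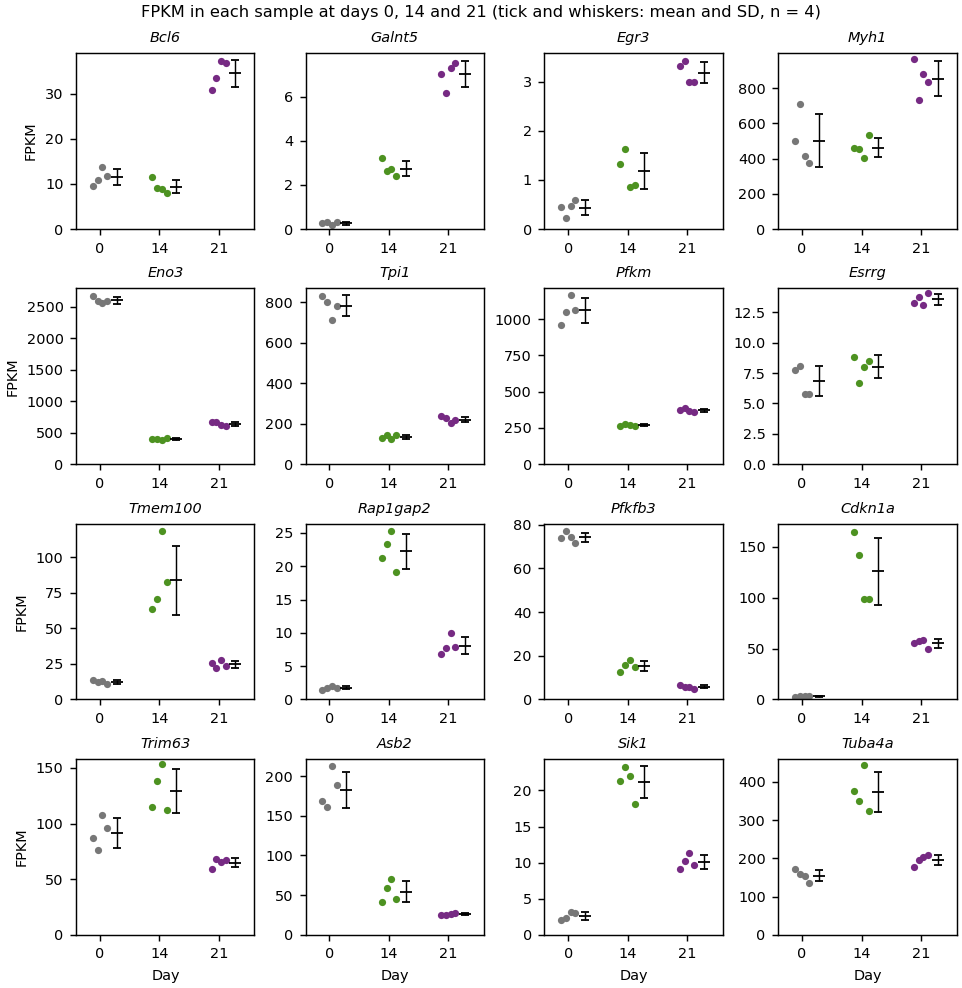
FPKM of 16 genes in each sample of days 0 (grey), 14 (green) and 21 (purple), 1 panel per gene with its own axis from 0; the tick and whiskers give the mean and SD of 4 samples. In all 16 panels the points of days 14 and 21 do not overlap, with Bcl6 at 7.97 to 11.5 against 30.8 to 37.2 and Trim63 at 112 to 153 against 58.98 to 68.4.

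Bcl6 is known as a gene that Stat5, the transcription factor activated by growth hormone, holds down. The windows of 250 bases before its 2 annotated starts are shown because both hold the letters TTCNNNGAA, the core that Stat proteins recognise. The window before the start of Trim63 is shown because it holds GTAAACA, the core of FoxO sites. Sequences are RefSeq's (GRCm38.p6), written 5′ to 3′ in the direction of the gene, with the matching letters in capitals.
Bcl6, chr16:23981284-23981533, minus strand: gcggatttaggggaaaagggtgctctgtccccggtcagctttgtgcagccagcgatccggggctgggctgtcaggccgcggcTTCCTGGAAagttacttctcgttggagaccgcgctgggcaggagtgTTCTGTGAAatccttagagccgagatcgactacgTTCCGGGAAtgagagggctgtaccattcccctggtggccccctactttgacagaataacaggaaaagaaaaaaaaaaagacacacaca
Bcl6, chr16:23988853-23989102, minus strand: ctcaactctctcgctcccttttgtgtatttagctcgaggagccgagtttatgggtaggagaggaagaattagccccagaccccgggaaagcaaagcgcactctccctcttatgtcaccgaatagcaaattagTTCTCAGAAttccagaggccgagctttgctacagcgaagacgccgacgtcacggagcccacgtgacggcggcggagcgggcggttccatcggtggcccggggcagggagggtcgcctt
Trim63, chr4:134314870-134315119, plus strand: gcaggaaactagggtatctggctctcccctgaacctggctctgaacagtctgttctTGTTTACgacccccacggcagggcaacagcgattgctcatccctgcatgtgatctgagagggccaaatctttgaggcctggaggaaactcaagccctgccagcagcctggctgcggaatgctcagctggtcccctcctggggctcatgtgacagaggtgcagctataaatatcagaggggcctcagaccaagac

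The first Bcl6 window holds 3 matches, which begin 168, 122 and 88 bases before the start, and the second holds 1 at 118 bases. Of 27025 genes with a window, 2197 (8.13%) held at least 1 match and 8 (0.0296%) held 3 or more in 1 window. The Trim63 match begins 194 bases before the start and lies on the other strand, so that the printed letters are TGTTTAC. On either strand the FoxO core was found in 3.54% of all genes with a window, in 3 of 65 called higher genes with a window (4.62%) and in 12 of 250 called lower ones (4.8%). TTCNNNGAA, which reads the same on both strands, was found in 7.69% and 6.0% of them, and TNAAGGTCA, the letters of an oestrogen-related receptor site, in 0 and 2 genes (0.8% of the lower ones, 1.3% of all). Over the tested genes with a window the shares were 2.83% for the FoxO core, 7.14% for TTCNNNGAA and 0.947% for TNAAGGTCA. The windows of Pdk4, Asb2, Foxo1 and Cdkn1a held no FoxO core and that of Cish no TTCNNNGAA, which says only that these letters are not in these windows. A match describes letters only and shows no binding.

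Of the genes of the growth hormone and Stat5 pathway, 5 besides Bcl6 were called, all lower. Growth hormone binds the receptor Ghr and activates Stat5b through Jak2, and Cish and Socs2 are feedback inhibitors that Stat5 switches on. Stat5b read 39.7, 42.6, 46.3 and 41.1 at 14 d and 29.8, 30.6, 33.2 and 32.7 at 21 d (log2 difference -0.41, standard error 0.06, limma adjusted p = 0.0111). For Cish the values were 0.745, 0.888, 1.45 and 1.68 at 14 d and 0.152, 0.326, 0.149 and 0.165 at 21 d (log2 difference -0.85, standard error 0.14, limma adjusted p = 0.0176). Every day 21 sample lay below every day 14 sample in both genes. Ghr read 18.6 to 21.4 at 14 d and 13 to 15.9 at 21 d (log2 difference -0.44, standard error 0.07, limma adjusted p = 0.0148), Socs2 2.78 to 3.18 at 14 d and 1.85 to 2.24 at 21 d (log2 difference -0.36, standard error 0.07, limma adjusted p = 0.0269) and Igfbp3, a carrier of insulin-like growth factors, 7.86 to 10.2 at 14 d and 5.98 to 6.98 at 21 d (log2 difference -0.42, standard error 0.08, limma adjusted p = 0.0343). In all, 1 were called higher and 5 lower of the 15 tested members (all genes, 0.531% higher and 1.97% lower), with a median of -0.28 (-0.48 to -0.23 under the 4 other scalings). This list was written after the values were seen. Stat5b kept its call with each sample left out, Ghr lost it without D21d (adjusted p = 0.05003), Cish without D14c, D21a or D21d (at most 0.0564), Socs2 without any sample but D14a or D14b (at most 0.0842) and Igfbp3 without any sample but D14a (at most 0.0984). Socs2 was also not called under median-ratio scaling or quantile normalization, and Igfbp3 not under the latter. The lower calls of the list numbered 6 without D14a, 3 without D14d, D21b or D21c, 2 without D14c or D21a and 1 without D21d.

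Among the genes that fell, Tmem100 (ENSMUSG00000069763; chromosome 11, 90030348 to 90036508), a transmembrane protein of the BMP pathway, had the largest difference in log2(FPKM + 1). The ratio of mean FPKM was 0.295, against 0.167 for Cish, 0.206 for Orm3 and 0.278 for Cdk2ap2, which were present at low levels. Tmem100 read 63.5, 70.9, 118 and 82.6 at 14 d and 25.9, 22.2, 27.5 and 23.5 at 21 d (log2 difference -1.68, standard error 0.17, limma adjusted p = 0.00332). All day 21 samples lay below the day 14 samples and above the day 0 level of 12.4 ± 1.17. Rap1gap2, an inactivator of the small GTPase Rap1, read 21.3, 23.3, 25.2 and 19.1 at 14 d and 6.86, 7.69, 9.95 and 7.82 at 21 d (log2 difference -1.36, standard error 0.11, limma adjusted p = 0.00254). Cdkn1a, which encodes the cell cycle inhibitor p21, read 165, 142, 99.1 and 98.2 at 14 d and 55.1, 57.6, 58.5 and 49.3 at 21 d (log2 difference -1.14, standard error 0.16, limma adjusted p = 0.0105). The day 0 level of Cdkn1a was 3.203 ± 0.319, far below both groups.

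Nabp1, a single-stranded DNA binding protein of the damage response, read 40.6 to 53.02 at 14 d and 21.02 to 23.04 at 21 d (log2 difference -1.03, standard error 0.09, limma adjusted p = 0.00254). The TRAIL-binding decoy receptors Tnfrsf22 and Tnfrsf23, neighbours on chromosome 7, had differences of -1.06 and -1.02 (limma adjusted p = 0.0137 and 0.00255). The acute-phase glycoproteins Orm1, Orm2 and Orm3 had -1.28, -1.04 and -1.02 (adjusted p = 0.0255, 0.0163 and 0.0272). They are close copies between which fragments may be split, so their separate values are uncertain. Hpgd, which inactivates prostaglandins, read 64.5 to 121 at 14 d and 27.9 to 46.2 at 21 d (log2 difference -1.12, standard error 0.21, limma adjusted p = 0.0278), with D14c well above the other samples of 14 d. Cdk2ap2, a regulator of the kinase Cdk2, read 2.32 to 6.14 at 14 d and 0.565 to 1.79 at 21 d (log2 difference -1.21, standard error 0.24, limma adjusted p = 0.0362). Calls were lost for Orm1 without any sample but D14a, D14d or D21c (highest adjusted p = 0.0828), for Orm2 without D14c or D21d (0.0548), for Orm3 without any sample but D14a, D14b or D21c (0.0799), for Hpgd without D14b, D21a, D21b or D21d (0.07799) and for Cdk2ap2 without any sample but D14d or D21d (0.102) or after quantile normalization.

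Genes of the atrophy programme fell or showed no call, and none was called higher. Trim63 (ENSMUSG00000028834; chromosome 4, 134315120 to 134329629), whose promoter window is printed above, read 114, 138, 153 and 112 at 14 d and 58.98, 68.4, 64.96 and 66.8 at 21 d (log2 difference -0.98, standard error 0.101, limma adjusted p = 0.00372). The day 21 samples lay below the day 14 samples and below the lowest day 0 sample (76.1). Asb2, the substrate adaptor of a ligase that degrades muscle proteins, read 41.3, 59.2, 70.2 and 45.3 at 14 d and 24.6, 25.1, 26.4 and 27.98 at 21 d (log2 difference -0.996, standard error 0.15, limma adjusted p = 0.0137). Its day 0 level was 183 ± 23.02. Fbxo32, which encodes the ligase atrogin-1, was low and overlapped between the groups (0.52 to 1.62 at 14 d and 0.708 to 1.12 at 21 d; log2 difference 0.06, standard error 0.16, limma adjusted p = 0.865).

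Foxo1, a transcription factor that drives Trim63 in fasting and disuse, read 6.14, 6.28, 6.44 and 5.74 at 14 d and 3.75, 3.38, 4.13 and 4.14 at 21 d (log2 difference -0.56, standard error 0.07, limma adjusted p = 0.005804). Pdk4, a FoxO target that shuts glucose carbon out of mitochondria, read 234, 217, 237 and 231 at 14 d and 158, 165, 151 and 154 at 21 d (log2 difference -0.54, standard error 0.05, limma adjusted p = 0.00254). Both pairs of groups were fully apart. The call of Pdk4 was lost with day 28 in the fit (limma adjusted p = 0.194) and with all 32 samples in the fit (0.179). Eif4ebp1, a brake on translation, and Fbxo30, a further ligase, were called lower as well (-0.42 and -0.26, adjusted p = 0.0244 and 0.0451), but Eif4ebp1 lost its call without any sample but D14a or D14d and Fbxo30 without any sample but D14d, with adjusted p up to 0.0784 and 0.118, and Fbxo30 under 3 scalings. For the list of ubiquitin ligases and atrogenes, 0 were called higher and 6 lower of the 27 tested (22.2%, against 1.97% of all genes), or 4 without D14b, D14c or any 1 of the day 21 samples. Its median was -0.17, and -0.26 to -0.09 under the other scalings.

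Targets of glucocorticoids and fasting overlapped with these. Sgk1, a kinase induced by glucocorticoids, read 62.1, 60.4, 73.2 and 65.4 at 14 d and 45.5, 44.6, 43.7 and 44.2 at 21 d (log2 difference -0.54, standard error 0.06, limma adjusted p = 0.00525). Errfi1, an inhibitor of EGF receptors, read 30.5, 30.9, 30.96 and 27.8 at 14 d and 21.5, 19.3, 21.1 and 20.05 at 21 d (log2 difference -0.53, standard error 0.05, limma adjusted p = 0.003195). Neither gene overlapped between the groups. Arrdc3, an arrestin-like inducible regulator (-0.31, limma adjusted p = 0.0176), and the transcription factor Klf9 (-0.24, 0.0253) were called too. Neither stayed called after median-ratio scaling or quantile normalization, Arrdc3 was lost without D14c, D21b or D21d (at most 0.0604) and Klf9 without any sample but D14a (at most 0.08104). Of 23 such genes tested 7 were lower (30.4%, against 1.97% of all genes) and 0 higher, with a median of -0.24 (-0.37 to -0.17 under the other scalings). Pdk4, Foxo1 and Cdkn1a are in this count and in those above.

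Several steps of insulin signalling were lower. Eef2k, the kinase that slows translation elongation, read 13.2, 16.4, 14.4 and 10.7 at 14 d and 6.35, 6.43, 7.75 and 7.298 at 21 d (log2 difference -0.87, standard error 0.12, limma adjusted p = 0.00867). The groups did not overlap, and the call held with each sample left out. The adaptor Gab1 (-0.44), the PI3-kinase subunit Pik3r1 (-0.48), the kinases Akt1 (-0.42) and Akt2 (-0.34) and the translation brake Eif4ebp2 (-0.405) were called with limma adjusted p of 0.0142, 0.0216, 0.0234, 0.0253 and 0.0239. In each of these 5 genes every day 21 sample lay below every day 14 sample. Calls were lost without D21d for Gab1 (adjusted p = 0.0502), D21a, D21b, D21c or D21d for Pik3r1, any sample but D14a or D14d for Akt1, D14b, D14c, D21a or D21b for Akt2 and any sample but D14a, D14d or D21c for Eif4ebp2 (at most 0.0669, 0.0743, 0.07799 and 0.07004). Akt2 was also not called after median-ratio scaling. Of 31 genes of insulin and Akt signalling, 8 were lower (25.8%, against 1.97% of all genes) and 0 higher, with a median of -0.11 (-0.18 to -0.04 under the other scalings). The count was 3 without D21a, D21b or D21d, 4 without D14b or D14c and 5 without D21c. This list, too, was written after the values were seen.

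Of 32 proteasome genes Psme4 (-0.296), Psmd2 (-0.22), Psmd4 (-0.23) and Psmd7 (-0.19) were called lower (12.5%, against 1.97% of all genes; limma adjusted p = 0.0313, 0.0366, 0.0437 and 0.03699). None of the 4 was called after median-ratio scaling, quantile normalization or with a total without mitochondrial genes, while TPM called 8 members lower (median -0.12). The median of the list was -0.05, turning to 0.03 after median-ratio scaling, which called 2 other members higher. With any 1 sample left out, at most 1 of the list was called. Ulk1, the kinase that starts autophagy, read 12.02 to 14.3 at 14 d and 9.02 to 10.5 at 21 d (log2 difference -0.399, standard error 0.07, limma adjusted p = 0.0218) and was the only call of 28 autophagy and lysosome genes (3.57%, against 1.97% of all genes lower; median -0.14), of which TPM called 5 lower and the fit without D14a 3. It was lost without any sample but D14a or D14d (at most 0.0637) and after quantile normalization. Of 47 cytosolic ribosomal protein genes Rps20 (-0.41, adjusted p = 0.00696) and Rplp2 (-0.36, 0.04896) were lower (4.26%, against 1.97% of all genes), around a median of -0.07, and TPM called 4; Rplp2 lost its call under 3 scalings and without any of the 8 samples.

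Of the glycolysis genes 4 rose. Eno3, the muscle enolase (ENSMUSG00000060600; chromosome 11, 70657202 to 70662513), read 400.4, 405, 387 and 424 at 14 d and 673, 674, 623 and 604 at 21 d (log2 difference 0.67, standard error 0.06, limma adjusted p = 0.00254). Tpi1, triosephosphate isomerase, read 132, 143, 125 and 144 at 14 d and 236, 227, 203 and 218 at 21 d (log2 difference 0.698, standard error 0.07, limma adjusted p = 0.00255). Pfkm, the phosphofructokinase of muscle, read 263, 279, 268 and 264 at 14 d and 373, 385, 370.2 and 361 at 21 d (log2 difference 0.47, standard error 0.04, limma adjusted p = 0.00286). All 3 were fully separated and still far below day 0, at 2606 ± 52.1, 784 ± 50.7 and 1061 ± 84.9.

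Ldha, which turns pyruvate into lactate, rose less (174 to 195 at 14 d and 225 to 242 at 21 d; log2 difference 0.32, standard error 0.05, limma adjusted p = 0.01903) and lost its call without D21a, D21b or D21d (at most 0.0628). Ppp1r3c, which targets a phosphatase to glycogen, read 20.7, 18.3, 19.9 and 20.8 at 14 d and 32.4, 28.3, 29.1 and 29.8 at 21 d (log2 difference 0.56, standard error 0.06, limma adjusted p = 0.00376), with no overlap. Gapdh, often used as a reference gene, read 92.5, 88.9, 68.98 and 80.2 at 14 d and 118, 101, 108 and 112 at 21 d, so the groups did not overlap although the test fell just short (log2 difference 0.42, standard error 0.09, limma adjusted p = 0.0502). In the opposite direction, Pfkfb3, which makes the activator of phosphofructokinase, fell from 12.5, 16, 18.1 and 14.8 to 6.8, 5.79, 5.83 and 4.99 (log2 difference -1.25, standard error 0.11, limma adjusted p = 0.00254). Its day 0 level was 74.3 ± 2.17, above both groups. Of 23 glycolysis and glycogen genes 4 were called higher (17.4% against 0.531% of all genes) and 1 lower, with a median of 0.07 (0.01 to 0.15 under the other scalings). Limma-voom called 7 higher, median-ratio scaling and the fit without D14a 6, and the fits without D21a, D21b or D21d 3, each with 1 lower.

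Of the 13 protein genes of the mitochondrial genome all had positive differences, and 9 did not overlap between the groups (all genes above, 2.53%), while mt-Co3, a subunit of cytochrome oxidase, was the only one called (7.69%, against 0.531% of all genes). It read 150.3, 112, 169.9 and 114 at 14 d and 219.8, 205, 228 and 276 at 21 d (log2 difference 0.77, standard error 0.14, limma adjusted p = 0.0286). The call was lost without any sample but D14a or D14c (at most 0.0744), while 7 of the 13 genes were called without D14a, the day 14 sample with the largest mitochondrial share. The count also moved with the model: limma-voom called 9, the filter at 1 FPKM 7, a robust variance trend 6, a fit without a variance trend 4 and the fit with day 28 3, all higher, and the fit of all 32 samples and the one with no filter 0. The median of the 13 was 0.46 (0.31 to 0.54 under the other scalings).

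Among 38 nuclear genes of the respiratory chain 4 were called higher (10.5%, against 0.531% of all genes) and 0 lower. Of these Ndufs1 (0.33), Ndufb5 (0.27) and Ndufa5 (0.26) encode subunits of complex I (limma adjusted p = 0.03098, 0.0334 and 0.0363). Ndufs1 read 34.1, 28.7, 29.7 and 28.7 at 14 d and 40.7, 36.5, 37.9 and 38.2 at 21 d, with no overlap. In 15 of the 38 every day 21 sample lay above every day 14 sample (all genes, 2.53%), and in 0 below. The median was 0.15, 0.08 to 0.22 under the other scalings, which called 2 (TPM) to 10 (median-ratio) of them, and leaving out 1 sample left 4 calls without D14a, 1 without D21c and 0 without any other. Ndufa5 lost its call in all of those fits and with TPM.

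Of 29 genes of fatty acid oxidation and the TCA cycle, the isocitrate dehydrogenase subunits Idh3a (0.24, adjusted p = 0.0218) and Idh3g (0.27, 0.0286) were higher, each with its call lost without any sample but D14a (at most 0.0719 and 0.0822). Mdh1, the malate dehydrogenase of the cytosol, rose from 167, 158, 154 and 159.5 to 222, 228, 202 and 214 (log2 difference 0.44, standard error 0.05, limma adjusted p = 0.00578), without overlap. The partners of the shuttle that carries electrons into mitochondria, Got1 and Slc25a12, were higher too (0.34 and 0.27, adjusted p = 0.0358 and 0.01702), as were Pdhb of pyruvate dehydrogenase (0.23, 0.0405) and the ATP/ADP carrier Slc25a4 (0.25, 0.0481). These 5 genes were picked after their values were seen, and the call was lost for Got1 without any sample but D14a or D14b, for Slc25a12 without D14c, D21b, D21c or D21d and for Pdhb and Slc25a4 without any sample but D14a or with TPM (at most 0.0925, 0.0585, 0.116 and 0.122).

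Esrrg, an oestrogen-related receptor that drives mitochondrial genes in oxidative muscle, read 8.85, 6.71, 7.98 and 8.49 at 14 d and 13.3, 13.8, 13.1 and 14.05 at 21 d (log2 difference 0.698, standard error 0.08, limma adjusted p = 0.00472). All 4 later samples lay above the earlier ones and above the day 0 level of 6.85 ± 1.22. It was the only call of 16 PGC-1 and nuclear receptor genes. Ppargc1a, which encodes PGC-1α, read 3.47 to 4.28 at 14 d and 3.78 to 4.06 at 21 d (log2 difference 0.04, standard error 0.06, limma adjusted p = 0.772).

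**Figure D4:**
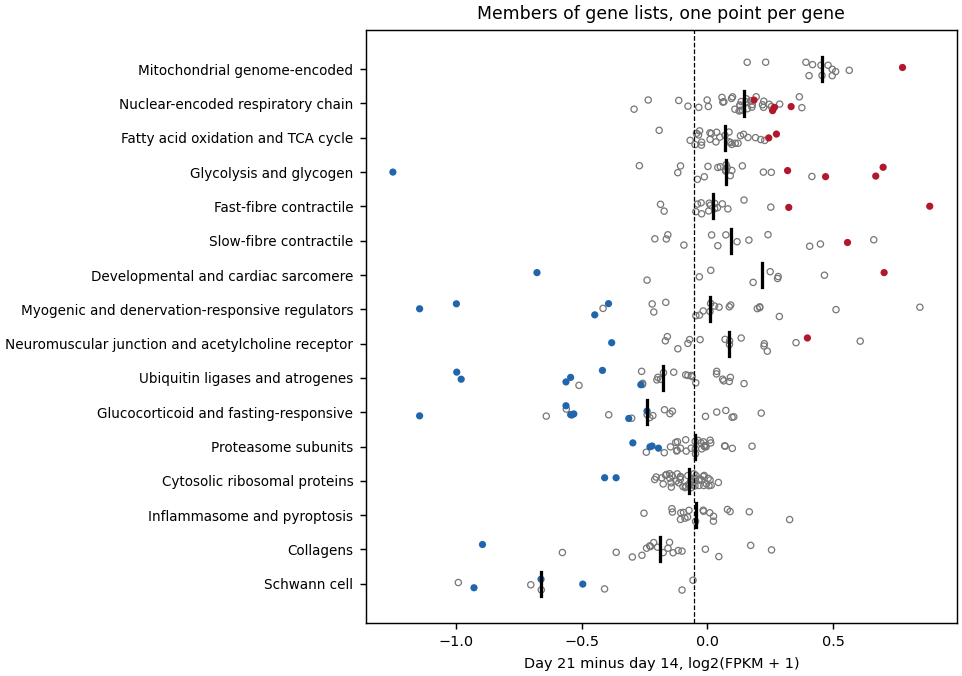
Difference between day 21 and day 14 in log2(FPKM + 1) for the tested members of 16 gene lists, 1 point per gene. Filled points were called (red higher, blue lower), open points were not, black ticks are list medians and the dashed line is the median of all genes at -0.05; the mitochondrial genome list has the highest median (0.46) and the Schwann cell markers the lowest (-0.66).

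Of the contractile genes, a few moved a good deal while most did not pass the test. Myh1, the myosin heavy chain of type IIx fibres (ENSMUSG00000056328; chromosome 11, 67200052 to 67224575), read 458, 454, 401 and 535 at 14 d and 969, 732, 880.1 and 834 at 21 d (log2 difference 0.88, standard error 0.11, limma adjusted p = 0.005804). The groups did not overlap, and the day 0 samples ran from 375 to 713. Casq1, the calcium buffer of the sarcoplasmic reticulum, was higher (0.32, adjusted p = 0.0457), but lost its call without any sample but D14d (at most 0.122) and with TPM. These were the 2 calls of 18 fast-fibre genes, whose median was 0.02 (-0.05 to 0.10 under the other scalings).

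Mb, myoglobin, rose from 3740.3, 3534, 2661 and 2872 to 4694, 4562, 4766 and 4604 (log2 difference 0.55, standard error 0.12, limma adjusted p = 0.0476), the only call of 14 slow-fibre genes (median 0.095, -0.016 without D14c and 0.346 without D14b). Its call was lost without any sample but D14a (at most 0.114), after quantile normalization (0.196), with a pseudocount of 0.1 (0.0508) or 0.5 (0.0506) and with no filter on low values (0.197), and an antisense gene covers 27.6% of its exons. Slow-fibre markers varied from sample to sample: the summed FPKM of 7 of them was 516, 806, 231 and 340.04 at 14 d and 449 to 654 at 21 d. Their part in these results was not tested.

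Embryonic and cardiac isoforms went both ways. Myh3, embryonic myosin, read 47.6, 42.2, 41.9 and 48.5 at 14 d and 24.4, 25.9, 26.7 and 34.9 at 21 d (log2 difference -0.68, standard error 0.11, limma adjusted p = 0.0161; call lost without D21b, adjusted p = 0.0536, and with all 32 samples in the fit, adjusted p = 0.239). Tnnt2, cardiac troponin T, read 5.68, 6.52, 4.98 and 6.46 at 14 d and 10.8, 11.02, 9.62 and 9.42 at 21 d (log2 difference 0.702, standard error 0.09, limma adjusted p = 0.00632). Neither overlapped, and each was near 1 FPKM or lower at day 0. They were the only calls of 10 embryonic and cardiac genes (median 0.21). Klhl41, which stabilises the sarcomere protein nebulin, rose from 391, 379, 380.4 and 394 to 514, 493, 496 and 497 (log2 difference 0.37, standard error 0.04, limma adjusted p = 0.00578). Fhl1, a LIM protein of the sarcomere, rose too (1042 to 1212 at 14 d and 1459 to 1539 at 21 d; log2 difference 0.39, standard error 0.07, limma adjusted p = 0.0237), with the call lost without any sample but D14a or D14d (at most 0.0741).

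Of 23 regulators of myogenesis and of the response to denervation, 4 were called, all lower (17.4%, against 1.97% of all genes). Sik1, a kinase that keeps Hdac proteins out of the nucleus, read 21.3, 23.2, 21.97 and 18.1 at 14 d and 9.15, 10.2, 11.3 and 9.66 at 21 d (log2 difference -0.998, standard error 0.08, limma adjusted p = 0.00254), without overlap and above the day 0 level of 2.61 ± 0.575. Hdac4, which represses muscle genes after denervation, had -0.39 (limma adjusted p = 0.0412), lost under 3 of the 4 scalings and without any sample but D14d, and an antisense gene covers 22.4% of its exons. Myf5, a myogenic factor of satellite cells, read 3.38 to 4.18 at 14 d and 2.23 to 2.87 at 21 d (log2 difference -0.45, standard error 0.08, limma adjusted p = 0.02501) and lost its call without any sample but D14a or D14d (at most 0.0798). Cdkn1a was the other one. Without D14a 3 members were called lower and 3 others higher, limma-voom called 5 lower and 1 higher, and 2 were called without D14b, D14c or any 1 of the day 21 samples or after quantile normalization. The median of the list was 0.01 (-0.06 to 0.06 under the other scalings).

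At the neuromuscular junction, 2 of 17 genes were called, 1 higher and 1 lower (all genes, 0.531% and 1.97%). Ache, the acetylcholinesterase, read 1.24, 1.43, 1.61 and 1.601 at 14 d and 2.31, 2.46, 2.05 and 2.196 at 21 d (log2 difference 0.397, standard error 0.07, limma adjusted p = 0.0292). Lrp4, the receptor of agrin, read 3.995, 4.48, 4.501 and 4.68 at 14 d and 2.96, 3.24, 3.36 and 3.07 at 21 d (log2 difference -0.38, standard error 0.06, limma adjusted p = 0.0193). Both pairs of groups were apart, with calls lost without any sample but D14a or D14d for Ache and any sample but D14a, D14d or D21c for Lrp4 (at most 0.0886 and 0.0643). Gdnf, a growth factor for motor neurons, fell from 1.9 to 2.81 at 14 d to 0.907 to 1.45 at 21 d (log2 difference -0.67, standard error 0.11, limma adjusted p = 0.0189; call lost without any sample but D14a, D14d or D21c, at most 0.05999). With Ngfr it made 2 lower calls of 16 nerve-injury and synaptic genes (median -0.24).

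Of the tubulins, which build microtubules, 4 fell. Tuba4a read 375, 351, 445 and 324 at 14 d and 176, 195, 203 and 208 at 21 d (log2 difference -0.92, standard error 0.097, limma adjusted p = 0.00399), and Tubb6 65, 76.1, 56.99 and 50.1 at 14 d and 32.3, 31.8, 29.3 and 31.9 at 21 d (log2 difference -0.95, standard error 0.11, limma adjusted p = 0.00578). Exons of Stk16 on the other strand cover 37.3% of those of Tuba4a, and the sources used here do not say whether counting used the strand. Tubb4b (-0.68, adjusted p = 0.00787) and Tubb5 (-0.45, 0.0384) were called as well, Tubb5 under 1 of the 4 other scalings and not without any sample but D14a (at most 0.0992). All 16 tested members of this list, written after the values were seen, had negative differences (median -0.37), 10 of them without overlap (all genes, 10%). The lower calls numbered 10 with TPM, 9 by limma-voom, 8 with the filter at 1 FPKM or with day 28 in the fit, 7 without D14a and 3 or 4 under every other alternative (all genes, 1.97%). They are related genes that can share fragments. The iron store Fth1 fell from 813, 754, 836 and 756 to 425, 534, 497 and 506 (log2 difference -0.69, standard error 0.08, limma adjusted p = 0.00534), and the nuclear RNA Neat1 from 47.7 to 66.6 at 14 d to 29.4 to 36.7 at 21 d (log2 difference -0.69, standard error 0.11, limma adjusted p = 0.0191; call lost without D14c, D21a or D21d, at most 0.0637).

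Calls in the lists of stress pathways were higher in some genes and lower in others. Mthfd2, an enzyme of mitochondrial one-carbon metabolism, rose from 4.25, 4.18, 3.604 and 4.11 to 6.75, 6.85, 7.62 and 9.22 (log2 difference 0.77, standard error 0.09, limma adjusted p = 0.005804), while Chac1, which degrades glutathione, read 8.14 to 14.4 at 14 d and 4.39 to 6.47 at 21 d (log2 difference -0.93, standard error 0.18, limma adjusted p = 0.0305) and lost its call without any sample but D14a (at most 0.0917). With Fgf21 these were the calls of 27 genes of the integrated stress response (median 0.02). Of 20 chaperones and factors of the endoplasmic reticulum Manf was higher (0.26, adjusted p = 0.0401) and Xbp1 lower (-0.304, 0.01903). Egr3 was the only call of 20 immediate-early genes, the repressor Bhlhe40 (-0.36, 0.0176) and Cry2 (-0.34, 0.0494) were the calls of 19 clock genes, both lower, and thioredoxin Txn1 (-0.397, 0.0168) was the only call of 19 antioxidant genes. Median-ratio scaling and quantile normalization called 3 of the endoplasmic reticulum genes higher, and TPM called 4 clock and 3 antioxidant genes lower. Calls were lost for Manf without any sample but D14a, for Xbp1 without D14c, D21a, D21b or D21d, for Bhlhe40 without D14c, D21a, D21c or D21d, for Cry2 without any sample but D14a and under 3 scalings, and for Txn1 without D14c or D21a, with limma adjusted p up to 0.114, 0.0623, 0.0564, 0.121 and 0.0534. None of 16 heat shock genes was called in limma at an adjusted p under 0.05 (Hsp90ab1 -0.26, 0.0595; unadjusted p under 0.05 in 3), and limma-voom called 2.

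The genes of the NLRP3 inflammasome, a complex that activates caspase-1 and the pore protein gasdermin D, were low and overlapped between the groups. Nlrp3 read 0.295, 0.326, 0.246 and 0.341 at 14 d and 0.3398, 0.243, 0.118 and 0.184 at 21 d (log2 difference -0.095, standard error 0.07, limma adjusted p = 0.476). Casp1 read 1.14, 1.49, 2.15 and 2.03 at 14 d and 2.11, 2.199, 1.55 and 1.59 at 21 d (log2 difference 0.09, standard error 0.14, limma adjusted p = 0.769), and Gsdmd 3.98, 4.65, 4.05 and 5.17 at 14 d and 4.76, 4.196, 3.22 and 4.17 at 21 d (log2 difference -0.11, standard error 0.11, limma adjusted p = 0.635). The samples of the 2 groups interleaved in all 3 genes. The adaptor Pycard and the cytokines Il1b and Il18 had differences of -0.02, 0.01 and 0.33 (limma adjusted p = 0.923, 0.976 and 0.228). Of 19 genes 0 were called in limma (median -0.05), and 0 in limma-voom or under any of the 4 other scalings, with 4 at an unadjusted p under 0.05. The interleukin-1 receptor Il1r1, named after its values were seen, fell from 4.52, 4.66, 4.64 and 5.55 to 3.16, 2.86, 2.897 and 2.36 (log2 difference -0.61, standard error 0.08, limma adjusted p = 0.0101).

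Other immune and death genes gave few calls. The cytokine receptor Tnfrsf12a, also known as Fn14 and induced by denervation, read 52.2 to 60.8 at 14 d and 39.2 to 45.2 at 21 d (log2 difference -0.42, standard error 0.06, limma adjusted p = 0.0157), and the survival gene Bcl2l1 4.48 to 4.75 at 14 d and 2.88 to 3.59 at 21 d (log2 difference -0.37, standard error 0.07, limma adjusted p = 0.0244; call lost without any sample but D14a, D14d or D21c, at most 0.0784, and after quantile normalization). They were the 2 calls of 22 apoptosis genes (9.09%, against 1.97% of all genes lower), of which TPM and limma-voom called 4 lower. Ifi27 (-0.33, adjusted p = 0.0155) was the only call of 26 interferon-stimulated genes. None was called in limma among 31 chemokine and cytokine genes (median -0.09), 18 complement genes (-0.22) and 18 MHC genes (-0.05); unadjusted p was under 0.05 in 3, 4 and 2, and limma-voom called 0, 1 and 0. Summed macrophage markers read 471, 695, 655 and 1067 FPKM at 14 d and 477 to 668 at 21 d, so D14d stood above the rest. Without D14d the chemokine median was 0.007, the MHC median -0.02, the complement median -0.11 and that of the 12 macrophage markers -0.07 in place of -0.22. The sign of the chemokine median thus turned, and that of the MHC median turned without D14b (0.025) or D21c (0.024) and with median-ratio scaling or quantile normalization (up to 0.03).

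Schwann cell markers had the lowest median of any marker list, -0.66 over 9 tested genes, all negative (-0.52 without D14d). Mbp, a myelin protein, read 3.01, 3.35, 2.86 and 2.81 at 14 d and 1.64, 1.98, 2.01 and 1.74 at 21 d (log2 difference -0.495, standard error 0.07, limma adjusted p = 0.0132). Cdh19, a cadherin of Schwann cell precursors, read 6.39, 7.43, 6.92 and 9.49 at 14 d and 3.83, 4.92, 4.59 and 4.18 at 21 d (log2 difference -0.66, standard error 0.11, limma adjusted p = 0.02099), and Ngfr, the neurotrophin receptor that repair Schwann cells express, 12.2, 18.8, 14.7 and 20.8 at 14 d and 7.95, 9.79, 8.93 and 6.16 at 21 d (log2 difference -0.93, standard error 0.17, limma adjusted p = 0.0275). In all 3 every day 21 sample was lower. They were 3 calls of 9 (33.3%, against 1.97% of all genes), which became 5 with TPM or limma-voom, 4 without D14a, 2 without D14d, D21b or D21c, 1 without D14b, D14c or D21a and 0 without D21d or with all 32 samples in the fit. Calls were lost without D21d for Mbp (adjusted p = 0.05003), D14b, D14c, D21a or D21d for Cdh19 and any sample but D14a for Ngfr (at most 0.0647 and 0.0793). The summed markers read 49.1 to 82.1 FPKM at 14 d and 34.6 to 46.6 FPKM at 21 d, against 136 to 290.4 at day 0. An exact permutation test of day 21 against day 14, two-sided, gave p = 0.0286, and 0.377 after adjustment over 22 marker sums. The called genes did not all follow the sum at day 0. Mbp was above both groups there (19.1 ± 7.87), while Cdh19 (1.71 ± 0.435) and Ngfr (0.407 ± 0.150) were below both.

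Of 8 tenocyte markers 7 had positive differences, 3 of them without overlap (all genes, 2.53%), and the median was 0.36 (0.35 to 0.43 under the other scalings). Kera, a matrix proteoglycan, was called higher (6.67 to 12.6 at 14 d and 16.3 to 20.1 at 21 d; log2 difference 0.801, standard error 0.17, limma adjusted p = 0.0434), and Scx, a transcription factor of tenocytes and the only member with a negative difference, was called lower (50.3 to 65.8 at 14 d and 36.5 to 42.4 at 21 d; log2 difference -0.502, standard error 0.09, limma adjusted p = 0.02204), with calls lost without any sample but D14a or D14b for Kera and any sample but D14a, D14b or D14d for Scx (at most 0.117 and 0.0729). Gdf5, a BMP-family growth factor that protects denervated muscle from atrophy, fell from 4.59, 4.67, 4.76 and 4.83 to 2.501, 2.92, 2.73 and 3.17 (log2 difference -0.58, standard error 0.07, limma adjusted p = 0.00534), but an antisense gene covers 40.3% of its exons. Tgfb3, a TGF-β ligand, fell from 25.2, 24.5, 25.2 and 23.1 to 17.1, 16.7, 18.9 and 17.4 (log2 difference -0.46, standard error 0.05, limma adjusted p = 0.00534). Neither overlapped between the groups. With Fgf21 higher and Igfbp3 lower, 1 and 3 of 25 growth factor genes were called (all genes, 0.531% and 1.97%). Col19a1 was the only call of 20 collagens (-0.89, adjusted p = 0.04896, lost under 3 scalings and without any sample but D14d), and none of 29 matrix and crosslinking genes was called in limma (unadjusted p under 0.05 in 9, limma-voom called 1).

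Of the polyamine and creatine genes, 1 was called higher and 2 lower (16.7%, against 2.50% of all genes). Ampd3, the AMP deaminase that rises in atrophying muscle, fell from 25.3, 23, 23.9 and 20.7 to 15.9, 15.99, 17.1 and 16.1 (log2 difference -0.48, standard error 0.06, limma adjusted p = 0.00748), Smox, a polyamine oxidase, was lower (-0.38, 0.0193) and adenylate kinase Ak1 higher (0.28, 0.0198) among 18 genes of polyamine and creatine metabolism; calls were lost for Smox without D14c, D21a, D21c or D21d and for Ak1 without any sample but D14a, D14b or D14d (at most 0.0623 and 0.0628). Casq1 was the only call of 24 calcium-handling genes, of which median-ratio scaling and quantile normalization called 2 higher, TPM 3 lower and limma-voom 3 higher and 2 lower. Fdft1, squalene synthase, was the only call of 22 lipogenesis genes (-0.42, 0.005804), with exons of Ctsb on the other strand over 18.3% of its own. None of 28 cell cycle genes (median -0.01) and 16 imprinted genes (-0.04) was called in limma (unadjusted p under 0.05 in 0 and 5), and 0 and 1 in limma-voom. The retinoblastoma gene Rb1, named after its values were seen, fell from 21.8 to 30.2 at 14 d to 15.9 to 19.6 at 21 d (log2 difference -0.61, standard error 0.103, limma adjusted p = 0.0206), lost without any sample but D14a, D14d or D21c (at most 0.0662). Ppp1r3c, Klhl41, Fhl1, Fth1 and Neat1 were likewise chosen after their values were seen.

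Markers of other cells gave few calls. Satellite cell markers had 2 lower calls of 10, Myf5 and Cdh15 (-0.49, adjusted p = 0.0299, lost without any sample but D14a, at most 0.0834, and after quantile normalization), and the median was -0.01. Mb was the only call of 10 myofibre markers. No gene was called in limma among markers of slow fibres, macrophages, neutrophils, T or NK cells, B or plasma cells, mast cells, dendritic cells, fibro-adipogenic progenitors, cartilage or bone, endothelium, lymphatic endothelium, pericytes and smooth muscle, adipocytes, brown adipocytes, erythroid cells, epithelium, neurons or retina. At most 3 genes of such a list had an unadjusted p under 0.05, and limma-voom called 1 each among lymphatic, adipocyte and neuron markers. Medians of these lists ran from -0.55 (adipocyte) to 0.17 (slow fibre). Leaving out 1 sample moved the first to between -0.8 (without D14a) and -0.32 (without D14d) and the second to between -0.003 (without D14c) and 0.474 (without D14b). The adipocyte sum rested on Car3, which muscle fibres also express, and neuron markers summed to only 3.15 to 5.66 and 2.31 to 3.21 FPKM with Snap25 at 0. With 4 samples a group an exact permutation test of 1 sum cannot go below p = 0.0286, which leaves almost no room to pass 0.05 after adjustment over 22 sums (lowest adjusted p = 0.377), so these tests do not show that the sums were alike. The Schwann sum, whose groups did not overlap, was at that smallest p. The part of these sums in the results above was not tested.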

How the data were processed

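RNA of mouse GAS muscle was sequenced in 32 samples, of which the 8 of days 14 and 21 were compared. The deposited table gives FPKM per gene, computed by the authors; the submitters' processing notes name CASAVA, HISAT2 2.1.0, DESeq2 and GRCm38, and the annotation and use of strand are not given in the sources used here. Columns were assigned by their names, and C1 to C4 were taken as day 0 because no others remained. The comparison, gene lists and markers were chosen with earlier results of these data known, and 4 lists and 26 genes after their values had been seen.

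Of 33397 genes, 18469 that reached 0.1 FPKM in 4 of the 8 samples were fitted as log2(FPKM + 1) with limma 3.58.1 (R 4.3.3; variance trend, Benjamini-Hochberg adjustment), which understates changes of low genes; the fit was tested on simulated data. Named genes were the 12 higher and 12 lower called, non-overlapping genes with a mean of at least 1 FPKM and the largest differences, up to 6 called members of each list by p (3 where 0 were called) and 10 genes the study measured; some genes so chosen are not reported here. Marker sums were compared by two-sided exact permutation tests.

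Fragments were recovered with GENCODE exon lengths (33356 of 33397 genes; under 200 fragments, 99.3% of values within 0.02 of a whole number), giving 16055083 to 17561584 per sample, and used for limma-voom. Other alternatives were pseudocounts, filters, scalings, samples in the fit and variance models. Motifs were searched in RefSeq windows of 250 bases before gene starts, held by 11927 tested genes.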

Additional observations from a re-analysis of the deposited data

Results flagged for a closer look

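In 430 groups of 4 samples, Dixon's test at the 95% level set apart 20 single values, where chance alone would give about 21.5 (1 in 20). Among genes named for a call, the lowest day 14 sample of Errfi1 read 27.77 FPKM against 30.49 to 30.96 in the others. For Ldha the lowest day 14 sample read 173.9 against 192.6 to 195.2. The highest day 14 sample of Il1r1 read 5.552 against 4.519 to 4.661, and that of Hpgd 121.3 against 64.49 to 72.6. At day 21 the lowest sample was set apart for Tubb6 (29.32 against 31.83 to 32.32), Tac4 (2.066 against 2.938 to 3.061) and Orm2 (1.544 against 2.145 to 2.224). At day 21 the highest sample was set apart for Cish (0.3261 against 0.1492 to 0.165) and Ak1 (183.3 against 177 to 178).

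The other flagged values belong to genes that were not called and to marker sums. At day 14 the highest sample was apart for Cldn5 (12.93), Tap2 (3.914) and Cma1 (20.1 against 8.829 to 10.04), a mast cell protease, and the lowest for Opn1mw (0.4624). At day 21 the highest was apart for Zim1 (3.012) and Mmp8 (0.4738), and the lowest for Prox1 (0.8131). The antibody genes Ighm (43.8 against 19.55 to 23.38) and Jchain (3.925 against 0.2446 to 0.5944) and the summed B and plasma cell markers (77.35 against 21.7 to 27.35) were highest in D21a. Summed dendritic cell markers were lowest at 7.023 FPKM, against 8.551 to 8.859 in the other day 21 samples.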

How the results depend on the processing

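Against 461 called genes, 287 were called with no filter on low values, 710 among genes with an FPKM of at least 1, 1301 with TPM and 937 by limma-voom on recovered fragments; 1159 genes had an adjusted p under 0.1 and 3501 an unadjusted p under 0.05. Leaving out 1 sample gave 135 to 616 called genes. Of genes called with a change of at least 1.5-fold, 108 as reported, 172 were found with a pseudocount of 0.1, 264 with TPM and 245 by limma-voom, and 66 to 144 with 1 sample left out; the cause of these shifts was not tested, apart from the fewer samples or genes that enter such a fit. Counts of the other alternatives stayed within 1.5 times, from 350 with quantile normalization to 637 with day 28 in the fit. Without mitochondrial genes and their nuclear copies, an alternative chosen after seeing the data, 361 genes were called. In these alternatives none of the 461 genes changed sign. Other filters, variance trends and added samples leave the difference of each gene as it was, so there the sign could not change. The 193 single-gene differences followed here include genes that were not called, which had no call to lose. Of the called ones, 44 lost their call with all 32 samples in the fit, 32 with no filter and 18 with no variance trend. With day 28 in the fit 8 were lost, and with a pseudocount of 0.1 or 0.5 2 were lost. The fit with day 28 lost Pdk4, Cdh19, Ngfr, Igfbp3, Ulk1, Fbxo30, Manf and Gm28437. Among genes named above, the fit of all 32 samples lost Pdk4, Ppp1r3c, Tgfb3, Klhl41, Mbp, Ifi27, Tnfrsf12a, Myh3, Arrdc3, Bhlhe40, Smox, Lrp4, Cdh19, Pik3r1, Ulk1, Idh3a, Scx, Eif4ebp2, Bcl2l1, Socs2, Gm28437, Ndufb5 and Psmd7, and the fit with no filter lost Fgf21, Orm1, Orm3, Hpgd, Ache, Cdh15, Chac1, Ndufs1, Hdac4, Mb and Col19a1; both lost Fhl1, Ngfr, Gm13340, mt-Co3, Psme4, Igfbp3, Got1, Cdk2ap2, Ndufa5, Psmd2, Tubb5, Manf, Pdhb, Kera, Psmd4, Fbxo30, Casq1, Slc25a4, Rplp2 and Cry2. No paired analysis was possible because the columns carry letters that the labels tie to no sample. Depth leaves genes near 0.1 FPKM with few fragments, and 47 of the called genes had a mean FPKM under 1.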
